A study of Mus musculus with 12 samples.

Results

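Male mice with a low and with a high level of fear extinction were compared by the RNA of their hippocampi, the brain region that stores contextual memories. The libraries were chosen by mouse name: the low group holds the B mice 2-1, 3-3 and 7-3, and the high group holds the A mice 1-5, 3-5 and 8-4. This gives 6 of the 12 libraries of the series, 3 for each level, and the other 6 come from C and D mice, which are female. All were wild-type C57BL6/J mice of 18 weeks, and no treatment is recorded in the labels. Every library was made from poly(A)-enriched RNA of the hippocampus. The labels do not say how extinction was scored, how long before dissection it was tested, or whether the mice of a group shared a litter or a cage. Each library counts as 1 mouse here because its name is that of 1 mouse, and p-values measure the spread between these libraries only.

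Expression is given in TPM, a share of a library's transcripts that takes gene length into account and has one fixed sum in every library. In every list of values the 3 high libraries come first in the order A_3-5, A_1-5 and A_8-4, and the 3 low libraries follow in the order B_2-1, B_3-3 and B_7-3, unless the sentence says otherwise; within each group these are replicates 1, 2 and 3. TPM keep no read depth, so the depth of each library is unknown. The 6 libraries resembled each other, with Pearson correlations of 0.975 to 0.982 between pairs and 18170 to 18442 genes at 1 TPM or more in each. Transcripts derived from ribosomal RNA made up 20.4% of the TPM of A_3-5 and 9.68% to 13.5% of the other 5. Markers of the hippocampal fields were present, with all 13 markers of dentate granule cells, all 9 of CA1 and all 15 of CA2 and CA3 above a mean of 1 TPM and none of them called. Markers of the choroid plexus, the tissue of the ventricles that secretes cerebrospinal fluid, and of blood cells set libraries apart. The summed level of the 9 blood cell markers was 389.5, 592 and 385 TPM at high and 362, 259 and 994 TPM at low extinction, highest in B_7-3, and none was called. The summed level of the choroid plexus markers was 3940.0, 4471 and 566 TPM at high extinction and 1389, 188 and 213 TPM at low extinction. A_8-4 stood with the low libraries in this respect, and B_2-1 stood between.

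Fear extinction is the learned decline of a fear response when the cue or place that once signalled danger is met repeatedly without it. It is a new memory that competes with the old one, and the hippocampus is known to give it its context. Its formation needs neuronal activity, new transcription and stress hormone signalling. A dissected hippocampus also carries cells that are not neurons: astrocytes and microglia, the ciliated ependymal cells that line the ventricle, choroid plexus epithelium, and the fibroblasts and macrophages of the meninges. In RNA of whole tissue, fewer cells of a type and less RNA per cell cannot be told apart.

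A gene is called here when its adjusted p in the authors' deposited table, a DESeq2 comparison of these 6 libraries, was under 0.05. That table held an adjusted p for 20050 genes and called 101 of them, or 0.504%. Of these, 78 were higher at high extinction (0.389% of genes) and 23 were higher at low extinction (0.115% of genes). The fold changes are given as low minus high, so a negative log2 value means less RNA at low extinction. The 78 high calls had larger differences than the 23 low calls. Their median fold in the authors' deposited table was 1.78 with a range of 1.21 to 6.76, and 30 of them reached 2-fold. The low calls had a median of 1.29 and a range of 1.18 to 2.02 in the authors' deposited table, and 22 of the 23 stayed under 2-fold. High calls were also the scarcer RNAs, at a median of 4.54 TPM against 12.0 TPM for the low calls and 10.2 TPM for all genes with an adjusted p. In 16 of the high calls every low library was below 1 TPM, where few reads stand behind each value. Protein-coding genes made up 77 of the 78 high calls, whereas 10 of the 23 low calls (43.5%) were not protein coding, against 25.7% of all genes with an adjusted p.

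The same 6 libraries were also tested on the TPM themselves with limma, on log2(TPM + 1) for the 18303 genes that averaged 1 TPM or more. limma called 0 of them (0%) at an adjusted p under 0.05. The smallest adjusted p was 0.12, and 1151 genes had an unadjusted p under 0.05. With 3 libraries a side, an exact permutation test of 1 gene cannot give a two-sided p below 0.1. The calls below therefore rest on the authors' count model, and the TPM of each library are given beside them. In 67 of the 78 high calls (85.9%) all 3 high libraries lay above all 3 low libraries, where 7.28% of the tested genes did so. In 21 of the 23 low calls (91.3%) all 3 low libraries lay above, against 4.2% of the tested genes. Both shares describe genes chosen from the same libraries and are no separate evidence. The gene lists below were chosen with earlier results of these data known, so their counts are no separate evidence either. B_3-3 was the lowest library in 51 of the high calls and A_1-5 the highest in 40.

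**Figure D1:**
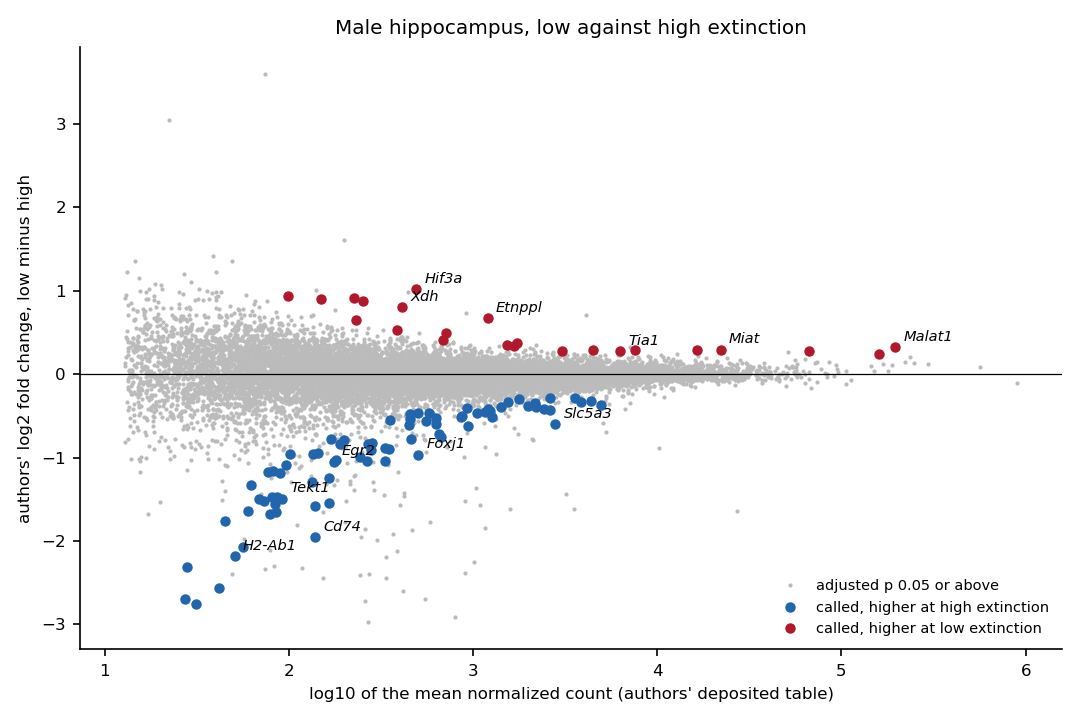
Log2 change, low minus high, from the authors' deposited table for male hippocampus. Each point is a gene that was called or had a mean of at least 1 TPM, and that has an adjusted p. Calls are genes with an adjusted p under 0.05, 78 with a change below 0 and 23 with a change above 0. The calls below 0 reach much larger differences than those above 0.

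The high call with the smallest adjusted p was Cd74, which belongs to MHC class II, the complex with which antigen-presenting cells show peptides to helper T cells. Its invariant chain Cd74 and the chains H2-Ab1 and H2-Eb1 were called. They are 3 of the 11 measured members of the list of class II genes and their loading factors, against 0.389% of all genes. The list was chosen with results of these data known, so it gives no separate evidence. Cd74 (ENSMUSG00000024610.14, chromosome 18, 60803848 to 60812652, GRCm38) escorts new class II molecules to the compartment where they are loaded. It stood at 9.49, 5.88 and 7.96 TPM at high extinction and 2.70, 0.997 and 1.77 TPM at low extinction, or 7.77 ± 1.81 against 1.82 ± 0.851 TPM (mean and SD, n = 3 each). Every high library lay above every low library. It was 3.87-fold more abundant with high extinction by the authors' deposited table (log2 change -1.95, SE 0.296, adjusted p = 5.36e-07, mean normalized count 138). H2-Ab1, the beta chain of the I-A molecule (chromosome 17, 34257689 to 34269419), was at 4.95, 2.01 and 6.42 TPM at high extinction and 1.36, 0.133 and 1.11 TPM at low extinction. The difference was 4.53-fold in the authors' deposited table (log2 change -2.18, SE 0.490, adjusted p = 0.00497). H2-Eb1, the beta chain of the I-E molecule (chromosome 17, 34305867 to 34316674), was at 3.88, 3.37 and 3.19 TPM at high extinction and 2.03, 0.595 and 0.223 TPM at low extinction, a 3.12-fold difference in the authors' deposited table (adjusted p = 0.0302). Both genes separated the groups without overlap, and B_2-1 was the highest low library in each. The antisense gene Gm20513 overlaps H2-Eb1 on the other strand, and the sources used here do not give whether reads were assigned by strand.

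The other class II genes showed smaller differences or none. H2-Aa, the alpha chain of I-A, was at 3.12, 1.64 and 2.78 TPM at high extinction and 1.87, 0.441 and 0.777 TPM at low extinction, where B_2-1 lay above A_1-5, and its adjusted p in the authors' deposited table was 0.283. Of the loading factors, H2-DMb1 was at 1.24, 1.47 and 2.08 TPM at high extinction and 0.956, 1.16 and 0.703 TPM at low extinction and was not called (adjusted p = 0.591 in the authors' deposited table). Its partner H2-DMa was at 11.1, 13.9 and 11.7 TPM at high extinction and 14.9, 14.8 and 12.2 TPM at low extinction, with overlapping groups. Ciita, the transactivator that switches on class II genes, was at 0.543, 0.50 and 0.649 TPM at high extinction and 0.541, 0.578 and 0.618 TPM at low extinction, and its values also overlapped. A mean of 1 TPM was reached by 6 of the 11 members. Their median limma change was -1.07 on the log2(TPM + 1) scale, against -0.02 over all tested genes. With a pseudocount of 0.1 the median was -1.74, and at a mean of at least 5 TPM a single member was left, with a change of 0.18. H2-Eb2 was listed at 0 in all 6 libraries.

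The H2-Eb1 promoter is shown because class II genes are known to be switched on through a Y box, CCAAT, beside an X box; RefSeq's 160 bases before the start of transcription on GRCm38.p6 hold it at 59 bases before the start on the opposite strand and at 35 on the gene's strand, in capitals.
H2-Eb1 (chr17:34305707-34305866, plus strand): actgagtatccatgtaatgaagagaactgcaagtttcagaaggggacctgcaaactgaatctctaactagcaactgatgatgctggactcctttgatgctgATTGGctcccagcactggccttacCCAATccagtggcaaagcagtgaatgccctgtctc
Of all 32851 promoters in that table, 37.4% held CCAAT in a window from 250 bases before to 50 after the start, so these letters are common.

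No gene of the other immune lists was called. None of the 17 measured genes of MHC class I and its loading was called, and 13 of 15 tested had a change below 0, with a median of -0.12. B2m, the light chain of class I, was at 103, 131 and 128 TPM at high extinction and 109, 105 and 118 TPM at low extinction, and H2-K1 at 22.3, 28.4 and 24.0 TPM at high extinction and 17.9, 18.3 and 23.2 TPM at low extinction. Among 30 measured genes of the interferon response, none was called. Of the 27 tested, 7 were higher in every high library than in any low one, against 7.28% of all tested genes. The median of the 27 was -0.27. The interferon list was chosen with results of these data known, so it gives no separate evidence. Ifit1, an antiviral protein that binds foreign RNA, stood at 2.04, 2.29 and 2.43 TPM at high extinction and 1.45, 1.32 and 1.38 TPM at low extinction, without overlap, with an adjusted p of 0.235 in the authors' deposited table. Bst2, which tethers budding viruses, was at 6.70, 7.96 and 6.10 TPM at high extinction and 4.06, 2.58 and 4.70 TPM at low extinction (adjusted p = 0.189 in the authors' deposited table). Markers of the cells that carry class II were scarce: 2 of 11 border macrophage markers and 2 of 10 markers of dendritic and B cells reached a mean of 1 TPM. The summed border macrophage markers ranged from 9.88 to 13.7 TPM at high and from 11.7 to 18.0 TPM at low extinction, and those of dendritic and B cells from 12.1 to 12.4 TPM and from 11.3 to 12.5 TPM. Ccl24 and Ms4a1 were listed at 0 in all 6 libraries. Neither sum was higher at high extinction in every library. The 20 markers of microglia, the resident macrophages of the brain, had a median change of 0.10 and none was called. Their part in the class II differences was not tested.

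Genes of motile cilia and of the ependymal cells that bear them were among the high calls. Motile cilia are built on a ring of doublet microtubules, with dynein arms that drive the beat, radial spokes and a central pair that coordinate it, and a gene programme switched on by the transcription factors Foxj1, Rfx2 and Rfx3. Of 14 measured ependymal markers 5 were called (Foxj1, Ccdc153, Tekt1, Dynlrb2 and Ak7), all higher at high extinction, against 0.389% of all genes. All 11 tested members had a change below 0, and their median was -0.92. In 9 of them every high library lay above every low one, against 7.28% of all tested genes. The lists of ependymal markers and cilia genes were chosen with results of these data known, so they give no separate evidence. The cilia lists held 4 further calls that are no ependymal markers: Dnah10 and Dnah11 of the dynein arms, Spag16 of the central pair and Cfap52 of the outer doublet.

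Promoters of the called cilia genes were looked up because these genes moved together and RFX factors are known to act on genes of motile cilia. Only those of the 5 genes that hold the letters GTTGCC are printed, so the printed set is selected for that match. The promoters of Ak7, Cfap52 and Dnah11 and of the second Tekt1 start lack these letters and are not printed. The sequences are RefSeq's on GRCm38.p6, 160 bases ending just before the start of transcription, 5′ to 3′ on the gene's strand. Capitals mark GTTGCC, which is one side of the X box of the RFX factors, and CCAAT, the Y box, on either strand (so GGCAAC and ATTGG too).
Tekt1 (chr11:72361883-72362042, minus strand): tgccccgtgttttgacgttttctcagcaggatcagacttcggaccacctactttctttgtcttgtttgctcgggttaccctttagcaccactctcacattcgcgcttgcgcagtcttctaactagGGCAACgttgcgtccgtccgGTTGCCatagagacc
Ccdc153 (chr9:44240517-44240676, plus strand): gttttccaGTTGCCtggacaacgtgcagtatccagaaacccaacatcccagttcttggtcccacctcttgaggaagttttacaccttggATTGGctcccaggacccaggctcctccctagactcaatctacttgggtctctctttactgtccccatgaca
Dynlrb2 (chr8:116504855-116505014, plus strand): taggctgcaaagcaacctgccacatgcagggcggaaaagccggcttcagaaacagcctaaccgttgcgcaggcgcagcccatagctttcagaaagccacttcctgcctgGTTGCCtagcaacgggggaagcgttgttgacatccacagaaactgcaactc
Spag16 (chr1:69826810-69826969, plus strand): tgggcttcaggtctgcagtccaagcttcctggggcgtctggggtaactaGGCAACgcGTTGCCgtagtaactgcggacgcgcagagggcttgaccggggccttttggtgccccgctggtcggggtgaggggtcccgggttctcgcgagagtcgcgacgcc
Dnah10 (chr5:124724925-124725084, plus strand): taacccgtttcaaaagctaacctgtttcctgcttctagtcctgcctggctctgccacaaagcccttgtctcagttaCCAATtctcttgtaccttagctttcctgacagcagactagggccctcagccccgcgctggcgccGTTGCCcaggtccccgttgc
Of 15 genes chosen, 11 had an entry in the promoter table, 8 of them called cilia genes with 9 starts. Foxj1, H2-Ab1 and Xdh had no entry, and Cd74 was not looked up. GTTGCC was found on either strand in the window from 250 bases before to 50 after the start in 5 of the 8 cilia genes, those printed above. Of all 32851 promoters in the table, 12.5% held it. The Tekt1 promoter had it at 35 bases before the start on the opposite strand and at 15 bases before on the gene's strand, and Spag16 at 111 and 103 bases before. That is the first of the 2 Tekt1 starts in the table; the window of the second held no match to these motifs (the X box side or the Y box). CCAAT was in 3 of the 8, against 37.4% of all promoters. The forkhead letters GTAAACA were in that of Ak7 alone among the 8, and in 3.65% of all promoters. A match describes the letters only.

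Foxj1, the master factor of the programme (ENSMUSG00000034227.7, chromosome 11, 116330704 to 116335399), was at 10.6, 13.7 and 11.2 TPM at high extinction and 7.23, 4.01 and 6.37 TPM at low extinction, or 11.8 ± 1.63 against 5.87 ± 1.66 TPM (SD, n = 3 each). Every high library was above every low one. The difference was 1.95-fold in the authors' deposited table (log2 change -0.96, SE 0.175, adjusted p = 0.000190). Of the 11 measured ciliary transcription factors Foxj1 alone was called. Rfx4 was at 7.77, 8.94 and 8.49 TPM at high extinction and 7.07, 6.34 and 7.2 TPM at low extinction and Trp73, the p73 factor upstream of Foxj1, at 2.17, 1.87 and 2.09 TPM at high extinction and 1.76, 1.28 and 1.38 TPM at low extinction. Both separated the groups without overlap, by small margins, with adjusted p of 0.682 and 0.727 in the authors' deposited table.

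In the axoneme itself, Tekt1, a filament protein of the doublets, was at 3.97, 5.03 and 4.59 TPM at high extinction and 1.42, 0.720 and 2.17 TPM at low extinction. It was 2.81-fold more abundant with high extinction by the authors' deposited table (log2 change -1.49, SE 0.281, adjusted p = 0.000249). Cfap52, another protein of the doublets, was at 3.52, 4.82 and 1.99 TPM at high extinction and 1.51, 0.144 and 1.88 TPM at low extinction, so that A_8-4 lay just above the highest low library. The dynein heavy chains were scarce. Dnah11, of the outer arm, was at 0.754, 1.68 and 0.831 TPM at high extinction and 0.301, 0.0811 and 0.307 TPM at low extinction, yet its 2.92-fold difference had one of the smallest adjusted p of the authors' deposited table, 7.73e-05. Dnah10, of the inner arm, was at 0.762, 0.883 and 1.27 TPM at high extinction and 0.679, 0.113 and 0.423 TPM at low extinction. Dynlrb2, a dynein light chain, was at 6.53, 7.16 and 4.84 TPM at high extinction and 3.48, 0.562 and 1.27 TPM at low extinction, and Ccdc153, a marker of ependyma, at 8.41, 11.4 and 12.0 TPM at high extinction and 5.65, 2.95 and 2.26 TPM at low extinction. Both had their highest low value in B_2-1, and Ccdc153 differed 2.98-fold in the authors' deposited table (adjusted p = 0.000275).

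Of the central apparatus, Spag16 was at 2.11, 1.83 and 1.08 TPM at high extinction and 0.822, 0.176 and 0.494 TPM at low extinction and the adenylate kinase Ak7 at 3.42, 3.87 and 5.08 TPM at high extinction and 2.79, 1.29 and 1.66 TPM at low extinction. The spoke head genes were not called although their libraries were separated: Rsph1 stood at 7.69, 8.54 and 7.33 TPM at high extinction and 5.87, 3.42 and 3.60 TPM at low extinction (adjusted p = 0.0635 in the authors' deposited table). Rsph4a was at 3.91, 3.86 and 4.61 TPM at high extinction and 3.30, 1.47 and 2.31 TPM at low extinction, with an adjusted p of 0.0590 in the authors' deposited table. Of 17 measured spoke and central pair genes, 13 were tested. Among those 13, 8 had no overlap, all higher at high extinction, against 7.28% of all tested genes. The median of the 13 tested was -0.44, or -0.22 for those at a mean of at least 5 TPM. The dynein arm list of 25 had a median of -0.20 over 19 tested, with 5 genes without overlap against 7.28% of all tested genes. Its 3 members Dnali1, Dnaic2 and Dnah5 had adjusted p of 0.229, 0.168 and 0.326 in the authors' deposited table. Intraflagellar transport, which builds primary and motile cilia alike, had none of its 20 genes called and a median of -0.07.

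Further high calls known from cilia lay outside the lists. They were named after their values had been seen. Cfap61, a spoke-associated protein, was at 2.58, 2.60 and 2.28 TPM at high extinction and 2.16, 0.229 and 1.88 TPM at low extinction. The kinase Mapk15, found at the base of cilia, was at 2.62, 3.00 and 4.11 TPM at high extinction and 1.48, 0.681 and 1.02 TPM at low extinction. Ttc21a, related to a part of the transport machinery, was at 2.79, 2.21 and 2.66 TPM at high extinction and 2.18, 0.458 and 0.970 TPM at low extinction. In Cfap61 and Ttc21a the values of B_2-1 came close to those of the high libraries. Rgs22, Iqub and Ccdc187 were also called, with Ccdc187 at 2.67, 3.09 and 2.47 TPM at high extinction and 1.10, 0.883 and 0.941 TPM at low extinction and an adjusted p of 0.000190 in the authors' deposited table. Ttc21a overlaps the microglial receptor gene Cx3cr1 on the opposite strand, and Cx3cr1 itself was at 3.15, 3.16 and 4.49 TPM at high extinction and 3.96, 4.06 and 4.47 TPM at low extinction.

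Ependymal markers and those of the choroid plexus, which lies beside the ependyma, did not rank the libraries alike. The summed ependymal level was 77.4, 90.0 and 89.5 TPM at high and 60.9, 30.1 and 44.2 TPM at low extinction, without overlap. A_8-4, with the lowest choroid plexus sum of the high group, had an ependymal sum as high as A_1-5. In the low group B_2-1 had the highest sum of both lists. None of the 20 choroid plexus markers was called, 18 of which had an adjusted p in the authors' deposited table. Their median change was -1.68, and only Calml4 had no overlap. Ttr, the carrier of thyroid hormone that the plexus makes in bulk, was at 2874, 3299.8 and 299 TPM at high extinction and 906, 41.3 and 49.6 TPM at low extinction. Enpp2, the enzyme autotaxin, was at 759.6, 844 and 184 TPM at high extinction and 349, 93.7 and 108 TPM at low extinction (adjusted p = 0.607 in the authors' deposited table). The high group therefore held both the highest plexus levels and one library near the low group. A_8-4 was above all 3 low libraries in 70 of the 78 high calls and the highest of all 6 in 18, among them Ccdc153, Ak7, Dnah10, Mapk15, Rgs22 and H2-Ab1. The 8 where it was not were Cdh3, Col4a3, Flnc, Nid2, Piezo1, Slc12a4, Slc16a8 and Sned1. The high calls were chosen by the difference between these same libraries, so these counts are no separate evidence. The part of plexus or ependymal tissue in the calls was not tested.

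**Figure D2:**
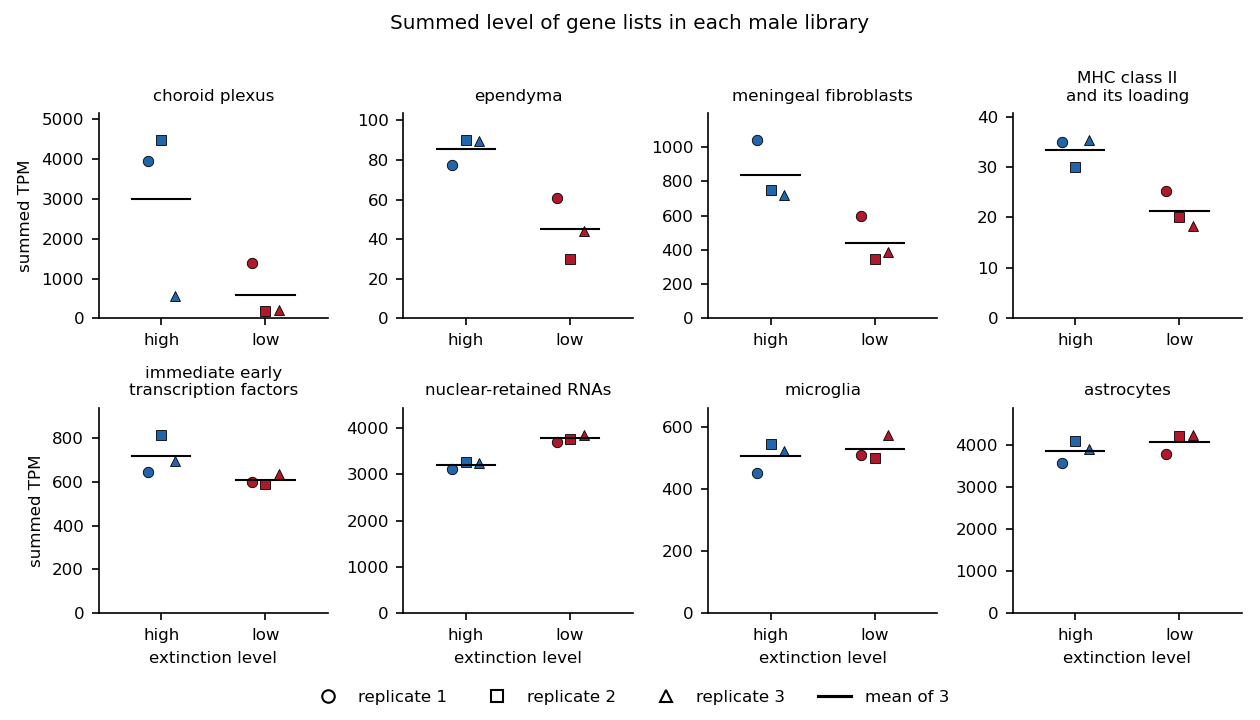
Summed TPM (vertical axes, from 0) of the members of 8 gene lists in each of the 3 high and 3 low male libraries; each point is a library, with its shape for the replicate, and the short bar is the mean of 3. The choroid plexus sum of A_8-4 (566 TPM) lies among the low libraries, whereas the ependymal and class II sums do not overlap between the groups.

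Markers of meningeal fibroblasts and of the arachnoid barrier gave 1 high call each. Over all genes with an adjusted p, 0.389% were high calls. Col3a1, a fibrillar collagen of fibroblasts, was the 1 called gene of 16 meningeal fibroblast markers. It stood at 2.11, 1.70 and 0.615 TPM at high extinction and 0.554, 0.209 and 0.324 TPM at low extinction, 3.14-fold more abundant with high extinction by the authors' deposited table (adjusted p = 0.0122). Of the 14 tested markers of these fibroblasts, 4 had no overlap and were higher at high extinction, against 7.28% of all tested genes. All 14 markers had a change below 0, with a median of -0.44. Their summed level was 1041, 749.9 and 721 TPM at high and 596, 344 and 389.7 TPM at low extinction. Most of that sum came from Ptgds, which makes prostaglandin D and is a protein of cerebrospinal fluid, at 878, 590.0 and 576 TPM at high extinction and 465, 275 and 319 TPM at low extinction. Igf2, a growth factor of the meninges and plexus, was at 33, 82.7 and 29.2 TPM at high extinction and 31.6, 13.7 and 9.94 TPM at low extinction with overlapping groups. The part of meningeal tissue in the matrix calls was not tested. The collagen chaperone Serpinh1 was called with clearer separation, at 17.3, 17.0 and 13.7 TPM at high extinction and 10.4, 10.6 and 9.41 TPM at low extinction (adjusted p = 0.000867 by the authors' deposited table).

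Some other high calls encode proteins of the matrix or of cell junctions; no list of such genes was made, and they were named after their values had been seen. The laminin chain Lama5 was at 6.51, 6.26 and 4.82 TPM at high extinction and 4.33, 3.76 and 4.09 TPM at low extinction, and Fbln1, a fibulin, at 9.83, 8.23 and 9.10 TPM at high extinction and 6.91, 4.83 and 4.76 TPM at low extinction. Col9a2, a chain of collagen IX, was at 4.06, 4.68 and 4.29 TPM at high extinction and 2.43, 2.08 and 2.98 TPM at low extinction. The thrombospondin Thbs1 was at 2.21, 1.29 and 1.99 TPM at high extinction and 0.779, 1.09 and 0.457 TPM at low extinction. In these 4 genes no low library reached a high one. Col4a3, a basement membrane collagen, was at 0.952, 0.891 and 0.110 TPM at high extinction and 0.275, 0.138 and 0.174 TPM at low extinction, so A_8-4 was the lowest of all 6. Nid2, which links laminin to collagen, was at 4.23, 4.38 and 2.04 TPM at high extinction and 3.19, 1.29 and 2.03 TPM at low extinction, where B_2-1 lay above A_8-4. P4ha1, a subunit of the enzyme that hydroxylates collagen, was called with overlapping TPM of 32.1, 46.9 and 45.5 TPM at high extinction and 35.4, 36.5 and 27.7 TPM at low extinction. Cdh1, E-cadherin, was at 0.415, 0.565 and 0.419 TPM at high extinction and 0.0865, 0.0188 and 0.129 TPM at low extinction. It was the 1 called gene of 7 arachnoid barrier markers, 4.96-fold in the authors' deposited table (adjusted p = 0.00376). Tjp3, a protein of tight junctions, was at 2.12, 2.40 and 1.66 TPM at high extinction and 0.473, 0.661 and 0.499 TPM at low extinction. Crb2, which sets the apical side of epithelial and neural progenitor cells, was at 3.40, 3.99 and 2.75 TPM at high extinction and 2.05, 1.59 and 2.31 TPM at low extinction. Both differed with adjusted p of 0.00148 and 0.000249 in the authors' deposited table. Itga11, a collagen-binding integrin, went the other way and was higher at low extinction, at 2.51, 2.51 and 2.18 TPM at low extinction and 1.63, 1.35 and 1.57 TPM at high extinction, low libraries first.

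The list of neurogenesis and proliferation gave 2 high calls in 18 measured members, against 0.389% of all genes. Nes, the intermediate filament nestin, was at 5.31, 5.15 and 6.33 TPM at high extinction and 3.87, 3.55 and 3.07 TPM at low extinction, and Ccnd2, the cyclin of dividing granule cell precursors, at 58.7, 42.8 and 50.2 TPM at high extinction and 34.4, 48.5 and 35.5 TPM at low extinction. They were 2 of 18 measured members, and the tested median was -0.07, near that of all genes. Ccnd2 overlapped, since B_3-3 exceeded A_1-5. Outside that list, and chosen after the values had been seen, Vim, the intermediate filament vimentin, was at 36.3, 30.7 and 37.0 TPM at high extinction and 23.3, 28.3 and 26.5 TPM at low extinction, and Sox21, a factor of progenitors, at 7.00, 8.24 and 7.50 TPM at high extinction and 4.15, 5.85 and 5.65 TPM at low extinction. Bmp7, a secreted growth factor, was at 7.56, 6.57 and 4.18 TPM at high extinction and 3.29, 2.59 and 3.01 TPM at low extinction. Fzd7, a receptor for Wnt proteins, was at 7.31, 8.54 and 7.54 TPM at high extinction and 6.20, 4.06 and 4.97 TPM at low extinction. Cd24a, a surface glycoprotein, was at 9.91, 9.74 and 14.6 TPM at high extinction and 7.93, 5.78 and 6.15 TPM at low extinction. Six3os1, a non-coding RNA transcribed beside the homeobox gene Six3, was at 1.07, 1.51 and 0.984 TPM at high extinction and 0.377, 0.345 and 0.484 TPM at low extinction, and it was the only high call that is not protein coding. It overlaps Six3 on the opposite strand.

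Of the genes that mark recent neuronal activity, 3 were called, all higher at high extinction. These immediate early genes are transcribed within minutes of strong firing, and they wane within hours. Egr2, Junb and Klf10 were called among 22 transcription factors of this kind, against 0.389% of all genes, and none was called in the other direction. Of the 22, 20 had a change below 0, and the median was -0.25. In 7 every high library lay above every low one, against 7.28% of all tested genes. This list too was chosen with results of these data known and gives no separate evidence. Egr2 was at 3.23, 4.72 and 4.08 TPM at high extinction and 1.69, 1.43 and 2.17 TPM at low extinction, 2.07-fold in the authors' deposited table (log2 change -1.05, SE 0.220, adjusted p = 0.00199). Junb, an AP-1 subunit, was at 57.7, 77.3 and 59.1 TPM at high extinction and 50.4, 45.6 and 49.6 TPM at low extinction and Klf10 at 21, 21 and 22.9 TPM at high extinction and 17.1, 13.2 and 17.1 TPM at low extinction, with folds of 1.31 and 1.35 in the authors' deposited table. Egr1, Jun and Fosl2 separated the groups but were not called, with adjusted p of 0.668, 0.244 and 0.0810 in the authors' deposited table. Fos was at 11.6, 24.8 and 11.8 TPM at high extinction and 13.5, 7.98 and 9.18 TPM at low extinction and Arc, which acts at synapses, at 83.8, 158 and 57.0 TPM at high extinction and 66.0, 56.1 and 59.7 TPM at low extinction. Both were highest in A_1-5 and overlapped, and for Arc A_3-5 also lay above every low library. The 28 activity-induced effector genes, the next step of the response, had none called and a median of -0.05.

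Chaperones and clock genes gave a few calls. Over all genes, 0.389% were high calls and 0.115% were low calls. Dnajb1, a co-chaperone of Hsp70, was the 1 called of 30 heat shock genes and chaperones, at 31.6, 40.9 and 34.1 TPM at high extinction and 27.9, 26 and 26.4 TPM at low extinction. Its fold in the authors' deposited table was 1.31 (adjusted p = 0.0118). Of that list 26 had a change below 0, with a median of -0.10. The inducible Hsp70 gene Hspa1a was at 14.2, 24.2 and 15.6 TPM at high extinction and 11.7, 12.2 and 11.4 TPM at low extinction, without overlap, but has a near-identical copy and was not called (adjusted p = 0.232 in the authors' deposited table). Herpud1, a protein of the stressed endoplasmic reticulum, was called from outside the list at 45.8, 55.1 and 50.2 TPM at high extinction and 37.4, 39.6 and 39.3 TPM at low extinction. Of 19 clock genes 3 were called. The repressors Nr1d1 and Nfil3 were higher at high extinction, at 72.9, 83.9 and 75.5 TPM at high extinction and 61.6, 60.1 and 60.4 TPM at low extinction for Nr1d1 and 8.59, 9.70 and 11.1 TPM at high extinction and 6.71, 6.60 and 6.23 TPM at low extinction for Nfil3. Per3, whose protein represses its own transcription, was higher at low extinction, at 25.8, 26.4 and 25.3 TPM at low extinction and 20.1, 23.9 and 22 TPM at high extinction, low libraries first. Their folds in the authors' deposited table were 1.26, 1.47 and 1.21. Nr1d1 overlaps Thra on the opposite strand and Per3 overlaps Camta1 on the same strand. The clock list as a whole had a median of -0.05, and the hour of dissection is not in the labels.

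Receptors and transporters were also among the high calls, named after their values had been seen unless a list is given. High calls made up 0.389% of all genes with an adjusted p. Slc5a3, which imports the osmolyte myo-inositol, was the 1 called of 12 osmolyte and ion transport genes. It stood at 13.8, 14.2 and 15.4 TPM at high extinction and 11.3, 9.33 and 7.60 TPM at low extinction, 1.52-fold in the authors' deposited table (log2 change -0.60, SE 0.113, adjusted p = 0.000249). It overlaps Mrps6 on the same strand, so reads of the shared part could be counted to either. The taurine transporter Slc6a6 was at 65.1, 63.5 and 70.8 TPM at high extinction and 70.0, 77.6 and 79.9 TPM at low extinction and was not called. Slco1c1, which carries thyroid hormone and organic anions and is on the astrocyte list, was at 40.5, 49.98 and 35.9 TPM at high extinction and 35.6, 32.4 and 30.0 TPM at low extinction, so A_8-4 and B_2-1 nearly met. Chrm4, an inhibitory muscarinic receptor, was the 1 called of 30 monoamine and acetylcholine receptor genes, at 14.6, 17.7 and 15.8 TPM at high extinction and 11.9, 11.0 and 11.1 TPM at low extinction. Crhr2, a receptor for the urocortins, was at 2.60, 3.01 and 2.21 TPM at high extinction and 1.33, 1.14 and 0.832 TPM at low extinction. The organic anion transporter Slc22a8 was at 9.53, 8.05 and 8.53 TPM at high extinction and 6.38, 5.89 and 6.59 TPM at low extinction.

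Some high calls outside the lists encode nuclear proteins, named after their values had been seen. Banp, a DNA-binding protein, was at 16.7, 18.5 and 19.7 TPM at high extinction and 12.3, 11.4 and 17.4 TPM at low extinction; its fold was 1.42 with an adjusted p of 0.000249 in the authors' deposited table although B_7-3 lay above A_3-5. Banp overlaps Gm20388 on the same strand. Setd1b, a methyltransferase for histone H3, was at 25.3, 25.6 and 26.1 TPM at high extinction and 20.4, 19.9 and 23.2 TPM at low extinction, and Phf13, a reader of histone methylation, at 10.2, 11.0 and 11.3 TPM at high extinction and 6.44, 7.48 and 8.25 TPM at low extinction. Bcorl1, a co-repressor, was at 11.1, 10.5 and 11.7 TPM at high extinction and 6.67, 7.68 and 9.13 TPM at low extinction. These 3 had no overlap and differences under 1.5-fold. Fam46a, a poly(A) polymerase family member, was at 4.66, 5.8 and 4.34 TPM at high extinction and 2.57, 2.48 and 3.22 TPM at low extinction (adjusted p = 0.000275 in the authors' deposited table).

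**Figure D3:**
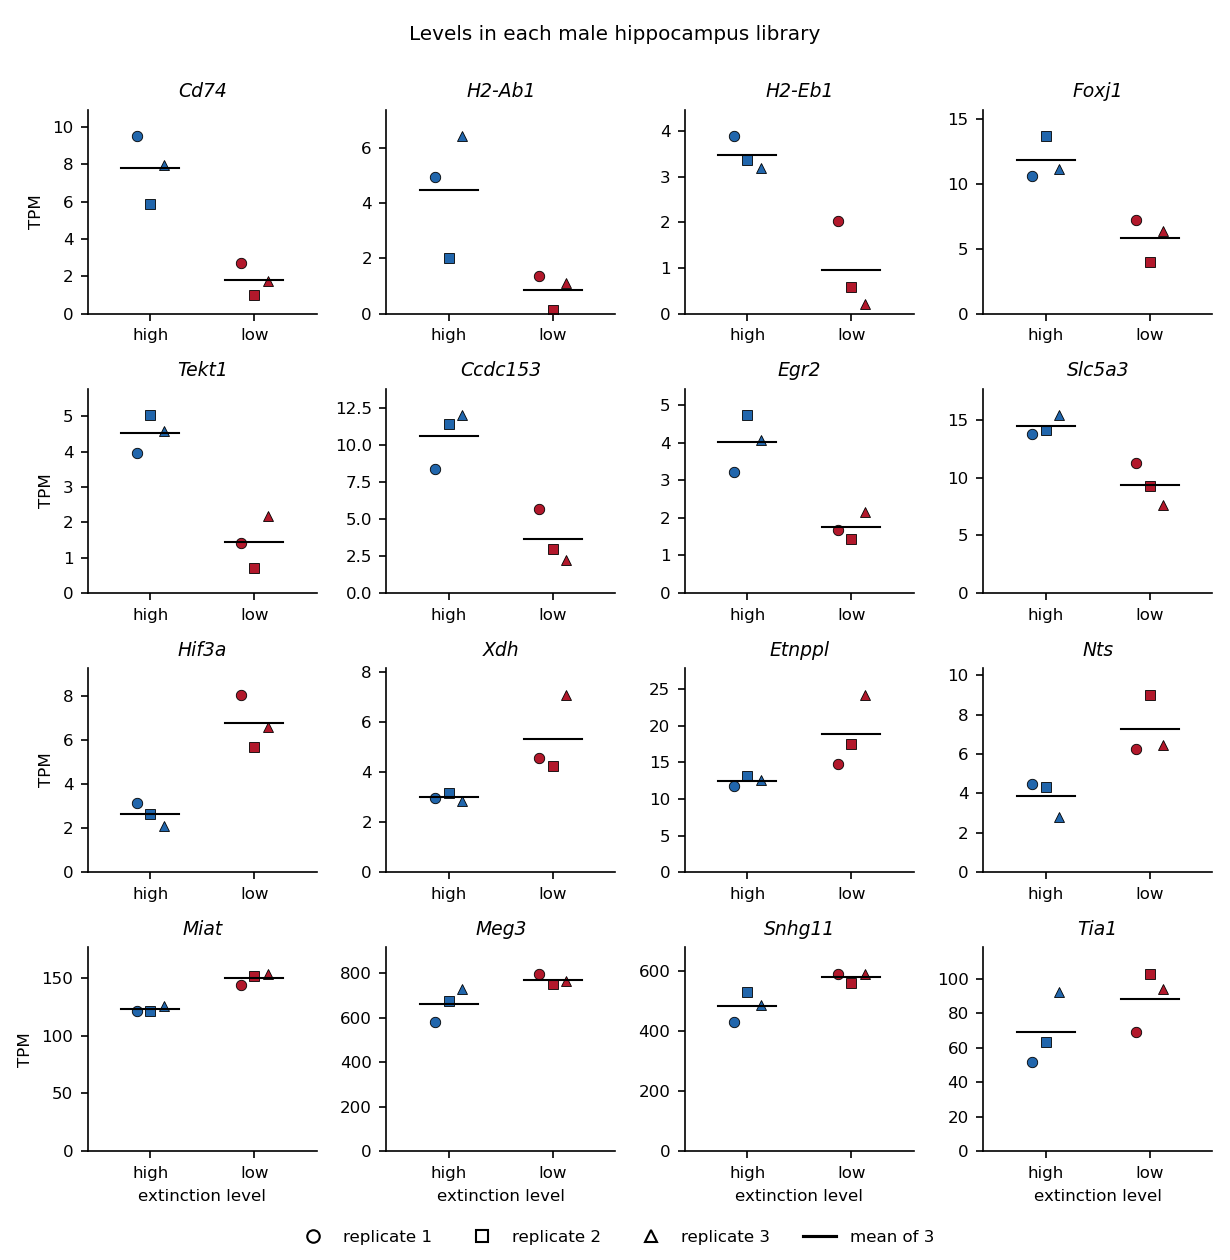
TPM (vertical axes, from 0) of 16 called genes in the 3 high and 3 low male libraries; each point is a library, with its shape for the replicate, and the short bar is the mean of 3. The first 8 genes are higher at high extinction without overlap, the others are higher at low extinction, and Tia1 is the gene of these 16 whose groups overlap, with A_8-4 at 92.5 TPM.

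At low extinction the call with the largest fold and the smallest adjusted p was Hif3a (ENSMUSG00000004328.15, chromosome 7, 17031507 to 17062427). It encodes a member of the hypoxia-inducible factor family that can restrain its relatives, and it is a known target of glucocorticoid. Hif3a was at 8.05, 5.69 and 6.60 TPM at low extinction and 3.15, 2.64 and 2.09 TPM at high extinction, low libraries first, or 6.78 ± 1.19 against 2.63 ± 0.531 TPM (SD, n = 3 each). It was 2.02-fold more abundant with low extinction by the authors' deposited table (log2 change 1.02, SE 0.155, adjusted p = 5.36e-07), the 1 low call that reached 2-fold. Xdh, xanthine dehydrogenase, the last enzyme of purine breakdown, was at 4.58, 4.27 and 7.11 TPM at low extinction and 2.98, 3.18 and 2.84 TPM at high extinction, and B_7-3 was the highest. Its fold was 1.75 in the authors' deposited table (adjusted p = 0.00247). The transcript 4833404L02Rik overlaps Hif3a on the opposite strand.

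Hif3a and Xdh were the 2 called of 24 genes induced by glucocorticoid, against 0.115% of all genes. None was called at high extinction, 19 of the 24 had a change above 0, and the median was 0.12, against -0.02 over all tested genes. Without A_1-5 the median was 0.29. The list was chosen with results of these data known, so it gives no separate evidence of a direction. Plin4, a protein of lipid droplets, was at 4.07, 7.16 and 4.75 TPM at low extinction and 2.58, 3.46 and 1.98 TPM at high extinction, low libraries first, with an adjusted p of 0.297 in the authors' deposited table. Mertk, a phagocytic receptor of glia, was at 25.8, 25.0 and 24.2 TPM at low extinction and 19.6, 22.3 and 19.1 TPM at high extinction (adjusted p = 0.0531 in the authors' deposited table). Neither had an overlap. The targets most used as a readout of the hormone were close to level. Fkbp5, which dampens the receptor, was at 38.4, 40.8 and 37.6 TPM at low extinction and 35.9, 33.1 and 38.9 TPM at high extinction, Zbtb16 at 44.4, 42.7 and 43.0 TPM at low extinction and 42.1, 42.7 and 43.5 TPM at high extinction, and Per1 at 33.9, 32.5 and 37.2 TPM at low extinction and 38.1, 49.8 and 38.1 TPM at high extinction, again low libraries first. Of these, Per1 alone had no overlap, and it was higher at high extinction. The Hif3a promoter window held neither the palindrome of a glucocorticoid response element (0.475% of all promoters), nor ACGTG, the core of a hypoxia response element (19.6%), on either strand. It held CCAAT at 84 and 52 bases before the start.

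Among glial and neuronal genes of the low group, Etnppl, an astrocyte enzyme that degrades phosphoethanolamine, was at 14.8, 17.6 and 24.3 TPM at low extinction and 11.8, 13.2 and 12.6 TPM at high extinction, low libraries first. Its fold in the authors' deposited table was 1.59 (adjusted p = 0.00199). It and Slco1c1, which went the other way, were the calls among 20 astrocyte markers, whose median was 0.05. Over all genes, 0.504% were called in either direction. Gjb6, a gap junction protein of astrocytes, was at 61.5, 61.2 and 50.4 TPM at low extinction and 42.2, 55.0 and 50.03 TPM at high extinction, just short of a call (adjusted p = 0.0545 in the authors' deposited table), and Sox9, an astrocyte factor, at 18.3, 16.9 and 18.4 TPM at low extinction and 19.7, 22.1 and 22.8 TPM at high extinction. Fam107a, a stress-responsive actin-binding protein, was at 285, 308 and 339.7 TPM at low extinction and 239, 284 and 269 TPM at high extinction, where B_2-1 and A_1-5 nearly met. Nts, the neuropeptide precursor of neurotensin, was at 6.24, 9.02 and 6.49 TPM at low extinction and 4.47, 4.31 and 2.81 TPM at high extinction, 1.87-fold in the authors' deposited table (adjusted p = 0.0483). Ndst3, which modifies heparan sulfate, was at 16.9, 19.3 and 17.5 TPM at low extinction and 13.2, 14.0 and 14.3 TPM at high extinction, and Kirrel2, an adhesion protein, at 5.69, 6.34 and 6.63 TPM at low extinction and 4.82, 4.08 and 4.12 TPM at high extinction. All of these low calls had no overlap.

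Of the lists, that of long RNAs that stay in the nucleus held the most low calls. It was chosen with results of these data known, so it gives no separate evidence. Miat, Malat1, Meg3 and Snhg11 were called, 4 of 11 nuclear-retained RNAs, against 0.115% of all genes, and none was called at high extinction. These are abundant, long transcripts that are spliced or retained in nuclear bodies rather than translated. The annotation used here gives Snhg11 as protein coding. Miat was at 143, 152 and 154 TPM at low extinction and 121, 121 and 126 TPM at high extinction, low libraries first (1.23-fold, log2 change 0.29, SE 0.0558, adjusted p = 0.000265 by the authors' deposited table). Malat1, a component of nuclear speckles, was at 1501, 1616 and 1697 TPM at low extinction and 1378, 1298 and 1216 TPM at high extinction. Meg3, an imprinted RNA of chromosome 12, was at 798, 750.5 and 764 TPM at low extinction and 582, 677 and 729 TPM at high extinction, and Snhg11 at 588, 560.2 and 589 TPM at low extinction and 431, 529 and 484 TPM at high extinction. In all 4 every low library was above every high one, by folds of 1.19 to 1.25 in the authors' deposited table. The summed level of the list was 3707, 3769 and 3856 TPM at low and 3110.0, 3255 and 3244 TPM at high extinction, without overlap.

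The rest of the list was mixed. The list had a median of 0.17, and 4 of its 11 members had a change below 0. In 5 every low library lay above every high one, against 4.2% of all tested genes. Rian, made from the same imprinted region as Meg3, was at 356, 333 and 303 TPM at low extinction and 276, 288 and 344 TPM at high extinction, and Snhg14 at 124, 134 and 125 TPM at low extinction and 116, 108 and 115 TPM at high extinction, low libraries first. Neat1, the scaffold of paraspeckles, was at 13.1, 25.6 and 26.9 TPM at low extinction and 25.5, 35.2 and 20.7 TPM at high extinction, where B_2-1 was the lowest and A_1-5 the highest of all 6. Host genes of small nucleolar RNAs, a list that shares Snhg11, had 1 call of 19. Over all genes 0.115% were low calls. Of the tested host genes, 5 had no overlap, all higher at low extinction, against 4.2% of all tested genes. The median of the tested host genes was 0.16, or 0.03 without A_3-5. Snhg8 was at 36.6, 41.0 and 42.4 TPM at low extinction and 25.9, 34.4 and 35.6 TPM at high extinction. In A_3-5 the share of ribosomal RNA fragments was the highest (20.4%), and A_3-5 was the lowest library in 14 of the 23 low calls. The part of that share in these differences was not tested.

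Other low calls came from transcripts of uncertain kind. Gm3764, a non-coding gene that contains the microRNA gene Mir9-1, was at 231, 243 and 213 TPM at low extinction and 148, 179 and 203 TPM at high extinction, low libraries first. A230103L15Rik was at 21.7, 21.7 and 21.4 TPM at low extinction and 15.5, 19.0 and 17.5 TPM at high extinction and lies within Snhg14 on the same strand. 9330162G02Rik was at 13.6, 13.6 and 12.1 TPM at low extinction and 9.87, 11.7 and 11.3 TPM at high extinction and overlaps Ube3a, the gene of a ubiquitin ligase, on the opposite strand. Both are on chromosome 7, which held 5 of the 23 low calls together with Hif3a, Kirrel2 and Zkscan2. The zinc finger gene Zkscan2 was at 13, 13 and 12.6 TPM at low extinction and 11.4, 10.3 and 10.5 TPM at high extinction. Gm37607 was at 4.94, 5.76 and 4.85 TPM at low extinction and 2.23, 3.26 and 2.81 TPM at high extinction, with a fold of 1.89 in the authors' deposited table (adjusted p = 0.000484). Without strand, reads of A230103L15Rik, 9330162G02Rik and the genes around them cannot be told apart.

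Tia1 (ENSMUSG00000071337.11, chromosome 6, 86404219 to 86433405) encodes an RNA-binding protein that regulates splicing and gathers stalled messenger RNAs into stress granules. It was called in the low direction, but only at 1.21-fold in the authors' deposited table (log2 change 0.28, SE 0.0735, adjusted p = 0.0441). Its TPM were 69.0, 103 and 93.9 TPM at low extinction and 51.8, 63.5 and 92.5 TPM at high extinction, low libraries first, or 88.6 ± 17.6 against 69.3 ± 20.9 TPM (SD, n = 3 each). The groups overlapped: A_8-4 lay above B_2-1 and close to B_7-3. limma gave a change of 0.37 ± 0.228 (SE) on the log2(TPM + 1) scale, with an adjusted p of 0.882. Gm44790 overlaps Tia1 on the same strand, so reads of shared sequence could be counted to either. Tial1, its nearest relative, was at 68.4, 64.9 and 62.1 TPM at low extinction and 57.7, 60.2 and 58.7 TPM at high extinction, without overlap but not called (adjusted p = 0.717 in the authors' deposited table). Tia1 was the 1 called of 30 stress granule proteins, against 0.115% of all genes, and the median of the list was -0.02.

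Many lists gave no call. These were oligodendrocytes and myelin with a median of -0.15, oligodendrocyte precursors (0.01), endothelium (-0.06), smooth muscle and pericytes (-0.04) and pan-neuronal genes (-0.03). The field markers had medians of 0.08 in dentate granule cells, 0.17 in CA1 and -0.04 in CA2 and CA3, and interneurons one of -0.04. Receptors for glutamate, the AMPA, kainate and NMDA types, had a median of 0.02, and GABA-A receptors one of -0.03. The endocannabinoid system had a median of 0.03. Cholesterol synthesis had a median of -0.16 with 20 of 22 genes below 0, and nuclear genes of the respiratory chain one of 0.02. All 13 mitochondrially encoded genes were above 0, with a median of 0.13, and A_3-5 had the lowest sum. Markers of tissue next to the hippocampus had medians of -0.14 for thalamus and habenula, -0.08 for cortex and -0.01 for striatum.

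**Figure D4:**
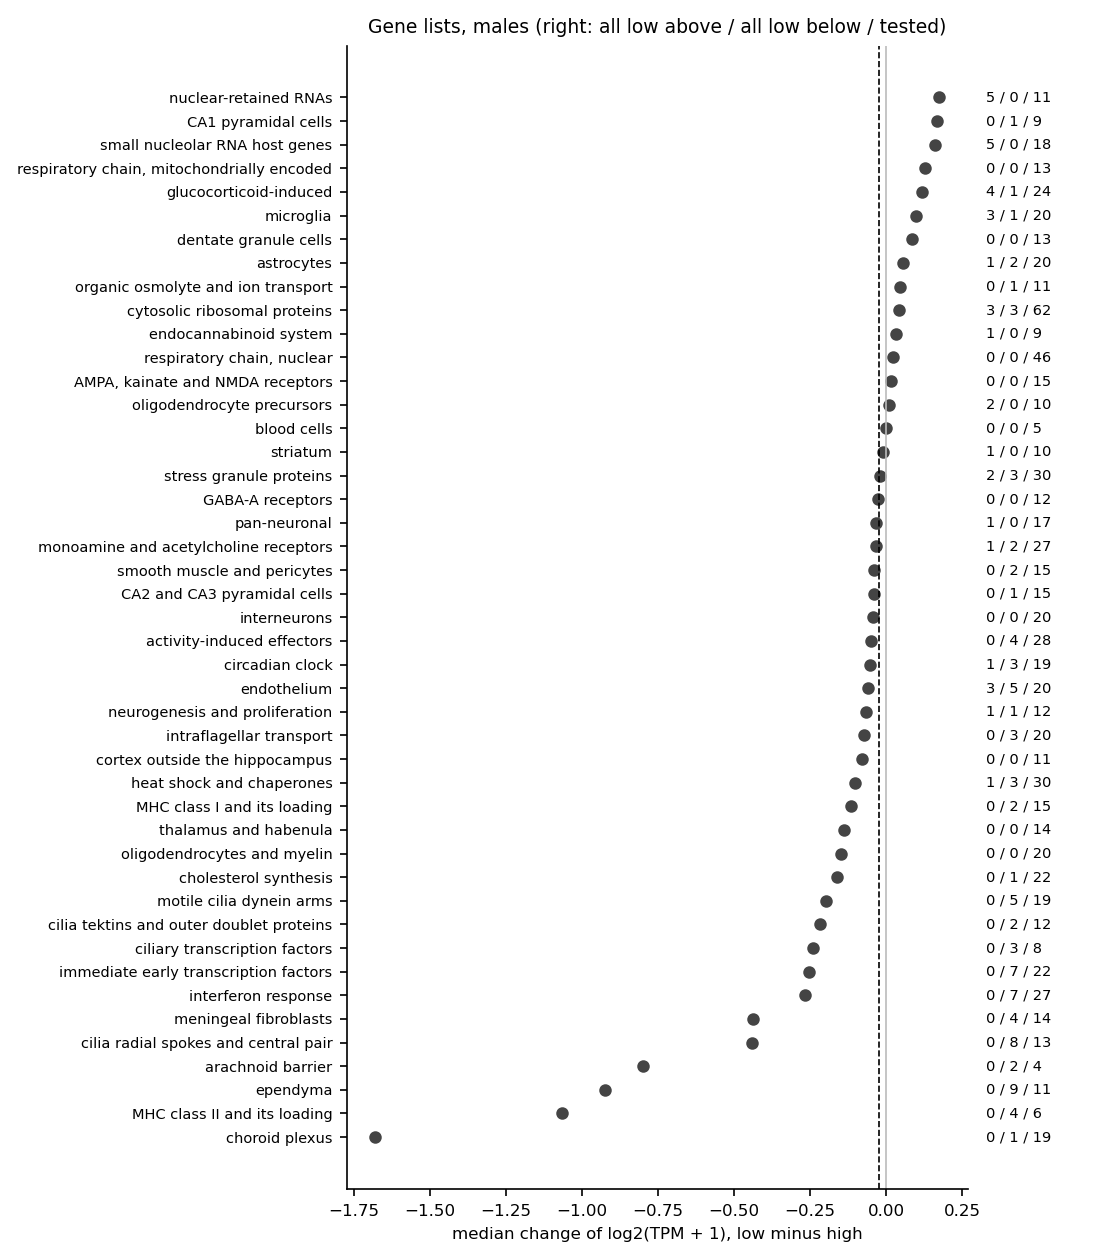
Median limma change, low minus high, on the log2(TPM + 1) scale (horizontal axis) for each list with at least 4 tested members (vertical axis); the dashed line is the median of all tested genes (-0.02). Numbers at the right count members with all low libraries above, all low libraries below, and tested; choroid plexus (-1.68), class II (-1.07) and ependyma (-0.92) lie farthest left, and nuclear-retained RNAs (0.17) farthest right.

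Some differences were large in TPM and near 0 in the authors' deposited table. Without overlap and with a ratio of mean TPM of at least 1.5, 169 genes (0.923% of those tested) were higher at low extinction and 221 (1.21%) higher at high extinction. The authors' deposited table called 7 and 37 of these. In 17 of the 169 and 30 of the 221 its log2 change was within 0.2 of 0. Several of the genes with the smallest limma p were of this kind. Supt4a, a subunit of an elongation factor of RNA polymerase II, was at 12.3, 18.9 and 20.4 TPM at high extinction and 3.44, 3.81 and 3.04 TPM at low extinction. limma gave it a change of -2.01 ± 0.187 (SE) with an adjusted p of 0.120, and its log2 change in the authors' deposited table was 0.15. Mapre2, which binds growing microtubule ends, was at 148, 134 and 153 TPM at high extinction and 64.2, 61.3 and 43.9 TPM at low extinction, with a log2 change of -0.02 in the authors' deposited table. Zfp605 and Zbtb45, both zinc finger genes, were at 9.15, 8.95 and 9.78 and 16.1, 20.6 and 19.9 TPM in the high libraries and at 4.42, 4.61 and 4.8 and 10.5, 9.96 and 9.02 TPM in the low ones. Prrg4 differed in both: it was at 2.49, 2.16 and 2.48 TPM at high extinction and 0.831, 0.523 and 0.637 TPM at low extinction, and the authors' deposited table called it (log2 change -1.17, adjusted p = 0.0241).

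In the low direction Scp2-ps2, a pseudogene, was at 91.7, 108 and 106 TPM at low extinction and 38.7, 51.1 and 48.5 TPM at high extinction, low libraries first, with a log2 change of 0.05 in the authors' deposited table. Rpl26, a ribosomal protein, was at 95.2, 101 and 98.7 TPM at low extinction and 66.3, 67.2 and 67.0 TPM at high extinction and Pyurf at 8.84, 9.27 and 9.84 TPM at low extinction and 3.92, 4.83 and 5.44 TPM at high extinction. The small RNA genes Gm23262 and Gm22883 were at 6.40, 4.53 and 2.88 and 2.34, 4.02 and 2.80 TPM in the low libraries and at 0.254, 0.435 and 0.161 and 0.552, 0.778 and 0.437 TPM in the high ones. Their log2 changes in the authors' deposited table had the same direction, 1.36 and 1.96. None of these 10 genes passed in limma, where the adjusted p of Scp2-ps2 was 0.120 and that of Rpl26 0.232. For Supt4a, Mapre2, Zfp605, Zbtb45, Scp2-ps2, Rpl26 and Pyurf the TPM differed more than the authors' deposited table did, and the cause was not tested.

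The female C and D mice were compared in a table of their own, so only changes within each table are set side by side. All males are A or B mice and all females C or D mice. Sex therefore cannot be told apart from the set of mice or its separate table. A difference between the sexes means here one between these sets of mice. The log2 changes of both deposited tables were subtracted, male minus female, and tested with their own standard errors. Of 15642 genes with an adjusted p in both tables, 64 (0.409%) differed at an adjusted p under 0.05, and 1065 at an unadjusted p under 0.05. limma's interaction over all 12 libraries called 1 of 18499 genes (0.00541%), Zfp605, with 1466 at an unadjusted p under 0.05. The low and the high calls of the male mice are counted apart here. None of the 23 low calls differed between the sexes, and 22 of them (95.7%) had the same sign in females, against 52.5% of all genes above 0 in males. Mirt1, a non-coding RNA, is among these 22 (log2 change 0.88 in males and 0.21 in females in the authors' deposited tables). Its male TPM overlapped, at 2.52, 1.52 and 2.67 at low and 2.63, 0.985 and 1.29 at high extinction. In females every low library lay below every high one, at 2.02, 1.66 and 2.03 TPM against 5.00, 3.36 and 3.34 TPM. Of the 78 high calls, 36 (46.2%) had the same sign in females, against 55.9% of all genes below 0 in males. A difference between the sexes was found in 25 of the 70 that could be tested. In 24 of these the signs were opposite, as they were in 63 of all 64 genes that differed. The calls were chosen by the male change, which is part of the difference tested, so these counts are no separate evidence. The low calls also had smaller folds in males (median 1.29 against 1.78), so the counts of low and high calls cannot be compared directly.

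The difference between the sexes with the smallest adjusted p was that of Cd74. Cd74 was at 2.44, 5.78 and 4.41 TPM in the female high libraries and 5.38, 6.70 and 10.3 TPM in the female low ones. Its change differed between the sexes by -2.69 ± 0.403 log2 (SE, adjusted p = 4.06e-07 from both authors' deposited tables). Col3a1 was called in both sexes in opposite directions, with a log2 change of 1.25 in the authors' deposited table of females (adjusted p = 2.05e-06), a difference of -2.90 ± 0.442. Cdh1, Vim and Sned1 were called in opposite directions too, with female log2 changes of 1.12, 0.34 and 0.43 in the authors' deposited table. Ependymal genes differed with smaller female changes: 0.05 for Foxj1, 0.25 for Tekt1 and 0.45 for Ccdc153 in the authors' deposited table of females, none of them called there. Of 15 meningeal fibroblast markers 6 differed between the sexes, and their median log2 change in the authors' deposited table of females was 0.59. No choroid plexus marker of 16 differed.

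The tables called 9 genes in the same direction in both sexes. Junb and Dnajb1 were higher at high extinction, with log2 changes of -0.39 and -0.39 in males and -0.38 and -0.28 in females in the authors' deposited tables. The other 7 rose at low extinction: Tia1, Zkscan2, Gm21781, 9330162G02Rik, A230103L15Rik, Meg3 and Snhg11. Meg3 changed by 0.24 in males and 0.30 in females, Snhg11 by 0.28 and 0.31, and Zkscan2 by 0.35 and 0.46, all as log2 in the authors' deposited tables. Tia1 changed by 0.28 and 0.23 (adjusted p = 0.0441 and 0.0363 in the authors' deposited tables). Hif3a was not called in females, with a log2 change of 0.24 in the authors' deposited table (adjusted p = 0.946), and the difference between the sexes did not pass (0.77 ± 0.570 log2, adjusted p = 0.926). The female libraries share no mouse with the male ones.

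**Figure D5:**
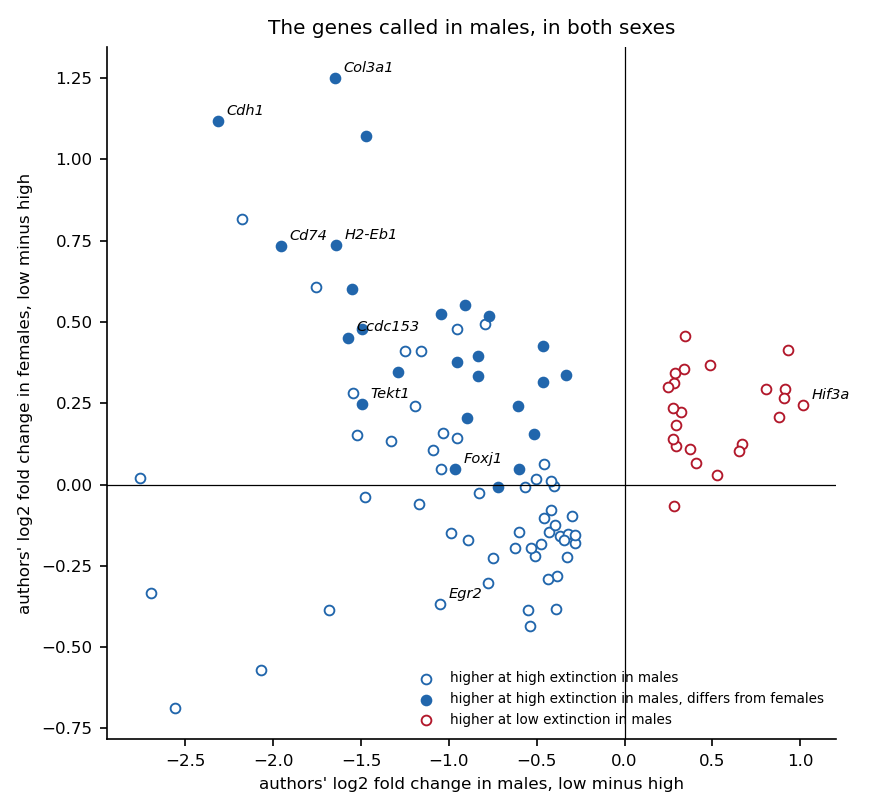
Log2 change, low minus high, in the authors' deposited table of males (horizontal axis) against that of females (vertical axis) for the 101 male calls; filled points are genes whose change differed between the sexes, unfilled points those not called or not testable for that difference. The low calls on the right lie above 0 in females in 22 of 23, whereas 42 of the 78 high calls on the left lie above 0.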

How the data were processed

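RNA-seq of 12 mouse hippocampi was measured, of which the 6 male libraries form the comparison. Per the submitters' processing notes, which give no roles, the builds were mm10 and GRCm38.p5 and the tools included StringTie 1.3.3b, HTSeq, Bowtie2, TopHat2 and DESeq2. TPM per gene were deposited by the authors, 1 table for each sex. Their deposited DESeq2 tables, per the file headers, give a mean normalized count, a signal per gene over libraries, the log2 fold change with its standard error, a test statistic (a score), and p-values raw and adjusted by the authors. The sign of that fold change is opposite to the TPM change, in 101 of 101 called genes, and was turned to low minus high. The tables hold no counts, so no count model was fitted here. Positions and biotypes come from GENCODE M21.

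limma 3.58.1 (R 4.3.3) was run with a mean-variance trend on log2(TPM + 1), for genes averaging 1 TPM or more, with Benjamini-Hochberg adjustment. The difference between the sexes was tested as the difference of the deposited log2 changes over the root of their summed squared standard errors. This was tested on simulated data drawn with the same standard errors, so it cannot show whether those errors are right. Named are Tia1, the 12 genes a direction with the smallest adjusted p in the deposited table at a mean of at least 1 TPM, the 5 a direction with the smallest limma p among genes without overlap, the 5 a direction that differed most between the sexes, and members of 47 lists; 2 list genes had no match. Other called genes were named after their values were seen. The members, lists and tests were chosen with earlier results of these data known. Alternatives were another pseudocount (0.1 or 0.5), no filter or 5 TPM, other thresholds, a joint fit and leaving out each library. Some items are not reported here.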

Additional observations from a re-analysis of the deposited data

Results flagged for a closer look

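The change from high to low extinction differed between the male and the female mice in 36 of the genes named in the report or here, by the test on both authors' deposited tables. Each value is the male log2 change minus the female one, low minus high, so that a negative value means that the RNA fell more, or rose less, at low extinction in males. Among class II genes the difference was Cd74 by -2.69, H2-Aa by -2.49 and H2-Eb1 by -2.38. For cilia genes it was Ccdc153 by -2.03, Ccdc187 by -1.46, Cfap52 by -2.16, Foxj1 by -1.01, Rgs22 by -1.97 and Tekt1 by -1.74. Markers of meningeal fibroblasts and the arachnoid barrier differed, Bgn by -0.97, Igf2 by -2.10, Ptgds by -1.63, Slc6a13 by -1.78, Col3a1 by -2.90, Cdh1 by -3.43 and Slc6a20a by -1.41. Matrix and structural genes differed, Angptl2 by -1.23, Col9a2 by -1.29, Fbln1 by -0.85, Lama5 by -0.67, Serpinh1 by -0.71, Sned1 by -0.89, Thbs1 by -1.64 and Flnc by -1.16. The remaining genes that were higher at high extinction in males differed, Bmp7 by -1.57, Cd24a by -1.10, Csrp2 by -1.33, Fzd7 by -0.65, Six3os1 by -2.55, Slc22a8 by -0.78 and Vim by -0.67. A positive difference was found for 5 genes, Cabp7 by 0.39, Cox8a by 0.40, Gm11808 by 0.87, Gm16418 by 0.60 and Htra1 by 0.46. Igf2, Ptgds, Bgn, Slc6a13, Slc6a20a and H2-Aa were not called in males, and their difference draws on the female side as well. Among list members not named in the report, Col1a1 of the meningeal fibroblasts differed by -1.16, Acta2 of smooth muscle by -1.35 and Prkcd of thalamus by -0.74. limma's interaction on TPM called none of these 36 genes, and it called 1 other gene, Zfp605.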

How the results depend on the processing

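No paired analysis was possible because replicates are numbered in record order and no label ties a mouse of one group to a mouse of the other. limma called 0 genes on the 6 male libraries; it called 1 in a joint fit over 12 libraries and 2 to 6 when 1 library was left out, 6 of them without A_3-5 and 4 without A_1-5. The interaction of sex and extinction, 1 gene, gave 2 with no filter and 2 with no trend, and 1 to 4 with 1 library left out. The authors' deposited table gave 101 calls, 173 at an adjusted p under 0.1, 42 under 0.01 and 66 with a log2 change of at least 0.5 in size. The 64 genes that differed between the sexes became 35 at an adjusted p under 0.01. The 390 genes without overlap at a ratio of 1.5 became 1218 at 1.2, 157 at 2 and 89 at a mean of at least 5 TPM, and 598 to 802 with 1 library left out, where fewer samples make separation easier. Calls of the authors' deposited table could not be refitted without a library, since it rests on counts not used here. Of 173 named genes, each under 16 alternatives, 3 reversed: Ciita, from -0.0149 without A_1-5 and -0.0032 without B_7-3 to 0.0533, Cox8a, from -0.0345 without A_3-5 to 0.1372, and Gm11808, from -0.0143 without A_3-5 to 0.2460, over the libraries left out. Passing in limma were Supt4a without A_3-5 (-2.23) and Zfp605 in the joint fit (-0.88); the cause was not tested. List medians moved by more than the spread in 14 of 47 lists under some alternative. At a mean of at least 5 TPM a single class II gene was left, and its change was 0.18. Unknown depth, 3 mice a group and levels near 1 TPM limit the class II and cilia values.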
